A study of Homo sapiens with 5 samples.

Results

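The SMAD genes SMAD1, SMAD2, SMAD3, SMAD4, SMAD5, SMAD6, SMAD7 and SMAD9 were followed through the DNA methylation profiles of human iPSCs exposed to 4 chemicals. The genes were chosen with earlier results of these data known, and their windows by position and symbol, without reference to methylation. A window of 1000 bases counted as a SMAD window when the deposited table assigned it to one of the 8 genes, or when it overlapped the gene extended by 1500 bases at each end. This gave 129 of the 288391 windows measured in all libraries: 6 for SMAD1, 13 for SMAD2, 31 for SMAD3, 11 for SMAD4, 5 for SMAD5, 21 for SMAD6, 29 for SMAD7 and 13 for SMAD9. The table's symbol alone gave 94 of them, and position alone gave the other 35, which the table assigns to antisense, intronic or unnamed genes inside the SMAD genes.

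SMAD proteins carry signals of the TGF-β superfamily from receptors at the cell surface to the nucleus. SMAD2 and SMAD3 are phosphorylated by the TGF-β, activin and nodal receptors, SMAD1, SMAD5 and SMAD9 by the BMP receptors, and SMAD4 joins either group before it enters the nucleus. SMAD6 and SMAD7 are induced by the pathway and inhibit it. In human pluripotent cells, activin and nodal signalling through SMAD2 and SMAD3 maintains the undifferentiated state, while BMP signalling favours differentiation. CpG islands, stretches rich in the dinucleotide CG, are usually free of methylation at the starts of genes that most cells use, while CpGs within gene bodies are usually methylated.

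The cells were the established line 201B7 (HPS0063), with the genotype given as WT and the cell type as pluripotent stem cell. The vehicle control received 0.1% DMSO, and the other cultures received 1 nM etoposide, a topoisomerase II inhibitor, 1 µM propyl gallate, an antioxidant food additive, 1 µM theophylline, a methylxanthine of tea leaves, or 10 nM 5-aza-dc, an inhibitor of DNA methyltransferases. Exposure lasted 48 h, and each condition had 1 RRBS library (reduced representation bisulfite sequencing, which reads methylation in CpG-rich fragments cut by a restriction enzyme). No difference between conditions could therefore be set against a spread between replicates, and every test below compares 2 libraries, not 2 conditions.

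The β-value of a window is the percentage of its cytosine calls that were methylated. The table held between 188844661 and 228919184 calls per library, and the SMAD windows between 107446 and 135678. The lowest number of calls in any library had a median of 354 over the SMAD windows, against 342 over all windows, and 126 SMAD windows had at least 30 calls in all libraries. The 95% intervals given below (Wilson) cover counting error only and treat all calls as independent. Calls within 1 read, or within PCR copies of it, are not independent. The intervals can therefore be too narrow, and the p-values of Fisher's exact test too small, even for counting error. As a check of the cell type, the promoter window of DPPA4 lay between 0.165% and 1.15% and the 3 promoter windows of LIN28A between 0% and 7.05%. The 2 windows at the start that the table gives for POU5F1 lay between 83.2% and 95.4%. A low level would be usual at an active start, and whether pluripotent cells use the start given there was not tested. NANOG and TDGF1 had no measured promoter window.

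RefSeq (GRCh38.p14) lists 19 starts for the 8 genes, and all 8 were matched by symbol. Of these starts, 16 lay in a measured window, in 12 distinct windows. Promoter sequences are printed for 5 starts because they span most of the range of CpG content and of methylation at the SMAD starts. SMAD3 gives the contrast within 1 gene, SMAD5 a start whose level was lower in 3 libraries, SMAD9 the island start with the highest level, and SMAD6 the only one with the full palindromic SMAD motif. Each runs 5′ to 3′ over 300 bases, from 250 before the start to 50 after it, with every CG in capitals.
SMAD3, main start, chr15:67065352-67065651, plus strand: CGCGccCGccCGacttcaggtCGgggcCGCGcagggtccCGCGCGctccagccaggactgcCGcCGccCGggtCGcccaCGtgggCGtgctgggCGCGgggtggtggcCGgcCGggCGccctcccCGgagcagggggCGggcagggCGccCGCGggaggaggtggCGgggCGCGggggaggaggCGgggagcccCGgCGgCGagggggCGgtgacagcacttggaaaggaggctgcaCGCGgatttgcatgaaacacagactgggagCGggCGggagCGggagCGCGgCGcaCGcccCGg
SMAD3, internal start, chr15:67098429-67098728, plus strand: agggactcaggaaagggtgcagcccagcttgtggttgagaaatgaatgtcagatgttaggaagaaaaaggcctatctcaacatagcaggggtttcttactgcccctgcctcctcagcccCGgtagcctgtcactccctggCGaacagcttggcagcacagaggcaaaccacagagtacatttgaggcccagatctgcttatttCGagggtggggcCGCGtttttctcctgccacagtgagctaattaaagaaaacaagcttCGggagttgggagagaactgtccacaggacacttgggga
SMAD5, chr5:136132595-136132894, plus strand: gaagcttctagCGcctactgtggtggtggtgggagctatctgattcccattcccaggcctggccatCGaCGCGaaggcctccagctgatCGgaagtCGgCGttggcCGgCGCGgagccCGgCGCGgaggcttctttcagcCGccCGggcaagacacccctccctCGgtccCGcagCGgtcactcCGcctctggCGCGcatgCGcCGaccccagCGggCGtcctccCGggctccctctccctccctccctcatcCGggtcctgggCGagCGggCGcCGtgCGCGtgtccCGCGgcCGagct
SMAD6, chr15:66701986-66702285, plus strand: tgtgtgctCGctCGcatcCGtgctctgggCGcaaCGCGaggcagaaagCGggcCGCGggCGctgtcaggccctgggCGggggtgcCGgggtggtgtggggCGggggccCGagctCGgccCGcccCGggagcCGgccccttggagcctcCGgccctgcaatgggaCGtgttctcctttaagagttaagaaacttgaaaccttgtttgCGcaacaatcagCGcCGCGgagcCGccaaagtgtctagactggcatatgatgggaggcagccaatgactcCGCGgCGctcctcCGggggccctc
SMAD9, chr13:36920189-36920488, minus strand: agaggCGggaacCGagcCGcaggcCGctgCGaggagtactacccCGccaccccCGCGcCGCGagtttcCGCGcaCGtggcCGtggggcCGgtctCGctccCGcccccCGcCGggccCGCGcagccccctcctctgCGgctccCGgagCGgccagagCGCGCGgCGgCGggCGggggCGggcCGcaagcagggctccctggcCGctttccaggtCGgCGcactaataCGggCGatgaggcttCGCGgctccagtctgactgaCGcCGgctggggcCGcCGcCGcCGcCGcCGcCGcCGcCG
The main SMAD3 start held 44 CGs and the internal start 6, while the median over all 35116 RefSeq promoters was 14. SMAD5, SMAD6 and SMAD9 held 36, 29 and 50. The restriction site CCGG, which the library protocol depends on for CpG-rich fragments, was in 17 of the 19 SMAD promoters and in 63.1% of all promoters. The palindrome GTCTAGAC, the SMAD binding element, was in the SMAD6 promoter only and in 0.202% of all promoters. Its shorter form, GTCT on either strand (read as GTCT or AGAC, which also matches inside the palindrome), was in 15 of 19 SMAD promoters and in 84.0% of all promoters. GGCGCC was in 7 of 19 SMAD promoters, against 19.2% of all promoters. These matches describe the letters in the window and not binding.

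All 8 SMAD genes had an unmethylated CpG island at the start in every library. There were 21 island windows within 3000 bases of a start of their own SMAD gene, a grouping made after the values were seen. Of these, 19 were below 5% in all 5 libraries (90.5%). By a wider rule, 31115 island windows of the table lay within 3000 bases of a start of any gene. Of those, 56.4% were below 5% in all 5 libraries. Of all 27 SMAD island windows, at starts or elsewhere, the same 19 were below 5% (70.4%), against 39.5% of all 49761 island windows. The group means over these 21 windows were 6.46% in the vehicle control, 6.13% with etoposide, 5.95% with propyl gallate, 6.42% with theophylline and 6.08% with 5-aza-dc. Most of that mean came from the 2 windows that were not low, one of SMAD6 and one of SMAD7, described further on.

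Among the BMP-responsive members, SMAD1 had the start window with the widest spread between libraries (chr4:145481001-145482000). Its β-value was 1.42% (41 of 2887 calls, interval 1.05 to 1.92) in the vehicle control, 0.935% with etoposide, 0.471% with propyl gallate, 2.40% with theophylline and 0.525% with 5-aza-dc. The libraries of propyl gallate and 5-aza-dc were lower than the vehicle control by less than 1 percentage point (adjusted p = 0.00686 and 0.00682, Fisher's exact test), and theophylline was not distinguishable from it (adjusted p = 0.0635, Fisher's exact test).
The window at the SMAD5 start (chr5:136132001-136133000) gave 40 methylated calls of 3448 in the vehicle control (1.16%) and 34 of 2494 after etoposide (1.36%). Propyl gallate gave 10 of 3111 (0.325%), theophylline 10 of 2750 (0.378%) and 5-aza-dc 8 of 2884 (0.286%). These last 3 libraries lay below the other two without overlap of their intervals, and each fell against the vehicle control (adjusted p = 0.00151, 0.00529 and 0.000485, Fisher's exact test). The next SMAD5 island window, which follows the start, did not show this order, with 1.06%, 0.948%, 0.993%, 1.49% and 0.869% in the order vehicle control, etoposide, propyl gallate, theophylline and 5-aza-dc.
SMAD9 had the highest start window of the family (chr13:36920001-36921000). It gave 4.49% in the vehicle control, 3.60% with etoposide, 4.70% with propyl gallate, 4.48% with theophylline and 3.94% with 5-aza-dc, and no library passed the test against the vehicle control (adjusted p from 0.197 to 1, Fisher's exact test). The SMAD9 island window next to it was below 1% in all libraries.

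Of the TGF-β-responsive members, SMAD2 had 2 island windows at its start. The one with both RefSeq starts (chr18:47930001-47931000) gave 0.668%, 0.455%, 0.694%, 1.03% and 1.07% in the same order of libraries, and its neighbour (chr18:47931001-47932000) lay between 0.523% and 0.858%. The SMAD3 main start (chr15:67065001-67066000) was the most even of the family, between 0.523% and 0.616% in all libraries with at least 5263 calls each. The SMAD3 island window before it lay between 0% and 2.56% on at least 246 calls. SMAD4, the common partner, had 0.646% in the vehicle control, 0.989% with etoposide, 0.638% with propyl gallate, 0.722% with theophylline and 0.623% with 5-aza-dc at its RefSeq start (chr18:51030001-51031000). For SMAD3 and SMAD4 the start given in the deposited table lies before the island in an unmeasured window, so the RefSeq start was used here. No island window at the start of SMAD2, SMAD3 or SMAD4 passed an adjusted p of 0.01 against the vehicle control (Fisher's exact test).

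The inhibitory members had the island windows that were not low. The SMAD6 start window (chr15:66702001-66703000) lay between 0.687% and 1.02%, and the SMAD7 windows with a RefSeq start (chr18:48949001-48950000 and chr18:48950001-48951000) between 0.556% and 1.61%. The SMAD6 island window that follows, centred about 2.3 kb into the gene (chr15:66704001-66705000), had 23.6% (219 of 929 calls, interval 21.0 to 26.4) in the vehicle control, 21.9% with etoposide and 21.8% with theophylline. After propyl gallate it had 14.8% (interval 12.8 to 17.0) and after 5-aza-dc 14.4% (12.4 to 16.7). These 2 libraries lay below the other 3 without overlap of the intervals and differed from the vehicle control by -8.77 and -9.17 percentage points (adjusted p = 2.98e-05 and 1.16e-05, Fisher's exact test). This stayed under the 10 points asked for a call, and the window was picked out after its values were seen. The SMAD7 island window farthest before the start (chr18:48953001-48954000) was methylated in every library, between 88.5% with etoposide and 95.4% with 5-aza-dc, while the 5 island windows next to it were all below 2%.

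Over the 19 SMAD windows with a mean below 5%, an adjusted p under 0.01 with no minimum difference was reached by 0 for etoposide, 2 with propyl gallate, 1 with theophylline and 2 with 5-aza-dc. Among all table windows at that level, 4.44%, 4.51%, 4.52% and 6.77% reached it. The SMAD windows behind these counts were the SMAD1 and SMAD5 start windows described above, all lower than the vehicle control.

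**Figure D1:**
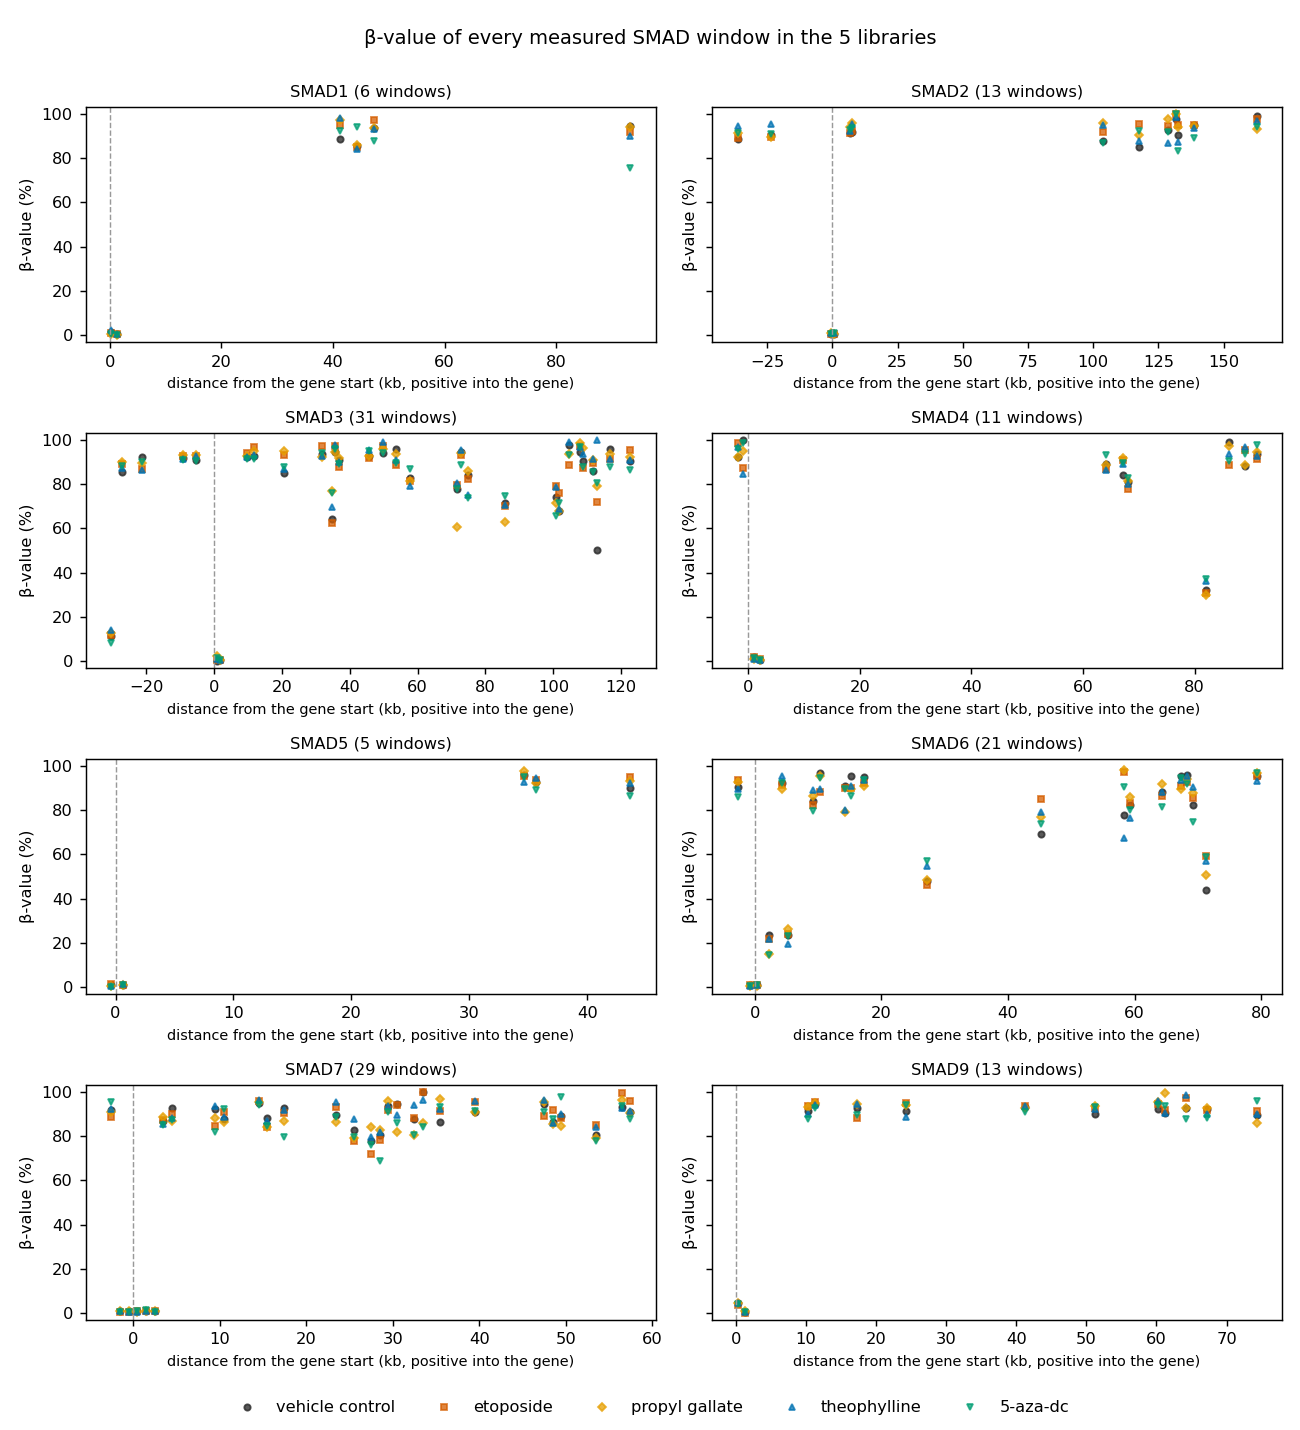
β-value (%) of each of the 129 SMAD windows against the distance of its middle from the gene start in the deposited table (kb, positive in the direction of transcription). Symbols mark the 5 libraries. Windows at the starts lie near 0%, and most others lie above 70%.

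Away from the starts the SMAD genes were methylated. Over the 5 libraries, 64 of the 129 SMAD windows had a mean of at least 90%, 38 lay between 70% and 90%, 8 between 10% and 70% and 19 below 10%. The table as a whole had 9.61% of its windows below 10%, against 14.7% of the SMAD windows. The 74 windows in or near the genes outside islands averaged 86.3% in the vehicle control, 87.2% with etoposide, 87.2% with propyl gallate, 87.4% with theophylline and 85.7% with 5-aza-dc. SMAD9 had 10 such windows, averaging 91.6% in the vehicle control and between 91.6% and 93.6% in the others. SMAD6 had the lowest mean of the 8 genes, with 16 windows averaging 78.7% in the vehicle control.

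Islands inside or beyond the genes, singled out after their values were seen, differed from those at the starts. A CpG island at the last part of SMAD6 (chr15:66781001-66782000) lay between 93.3% and 96.6%, the island inside SMAD9 (chr13:36879001-36880000) between 90.8% and 93.6% and the one in SMAD2 (chr18:47827001-47828000), on as few as 33 calls, between 86.9% and 95.6%. The 2 island windows past the end of SMAD7 averaged 93.7% in the vehicle control, 94.0% with etoposide, 83.0% with propyl gallate, 94.99% with theophylline and 82.3% with 5-aza-dc. Between them they had 199 to 328 calls per library, and neither passed the test for any chemical (adjusted p from 0.0631 to 1, Fisher's exact test). An island about 82.1 kb from the SMAD4 start, beyond the end of the gene (chr18:51110001-51111000), had an intermediate level. It gave 32.3% in the vehicle control, 30.8% with etoposide, 30.1% with propyl gallate, 36.1% with theophylline and 37.0% with 5-aza-dc. The last was 4.67 points above the vehicle control (adjusted p = 0.00294, Fisher's exact test).

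The 8 windows of intermediate level, picked out after their values were seen, were unevenly spread. SMAD6 had 4, SMAD3 was assigned 3 and SMAD4 1. In SMAD6 these were the island window above, a shelf window (chr15:66707001-66708000) between 19.5% and 26.1%, and 2 windows farther in the gene. One of these (chr15:66729001-66730000) rose from 47.9% in the vehicle control to 57.1% with 5-aza-dc (adjusted p = 0.00733, Fisher's exact test), a difference of 9.21 points. The other (chr15:66773001-66774000), with 107 calls in the vehicle control, lay at 43.9% there and at 50.8% to 59.4% in the other libraries, none of which passed the test against it (adjusted p from 0.0864 to 0.588, Fisher's exact test). Upstream of the SMAD3 start, a window outside islands (chr15:67033001-67034000) lay between 8.07% and 13.9%. Of the 4 further starts that RefSeq gives inside SMAD3, 2 lay in measured windows, and both were methylated, unlike the main start. The window with the internal start printed above (chr15:67098001-67099000) had 64.0% in the vehicle control, 62.3% with etoposide, 76.8% with propyl gallate, 69.6% with theophylline and 75.7% with 5-aza-dc. The other measured one (chr15:67138001-67139000) lay between 73.8% and 85.9%.

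A window was called when Fisher's exact test, adjusted over all 288391 windows of the pair of libraries, gave p under 0.01 and the β-values differed by at least 10 percentage points. After etoposide 2 SMAD windows were called, both higher (1.55% of the SMAD windows), where 2.32% of all windows were called and 1.36% were called higher. After propyl gallate 1 was called higher and 1 lower (1.55% of the SMAD windows), where 2.22% of all windows were called, 1.34% higher and 0.878% lower. After theophylline 1 was called higher (0.775%), where 2.27% of all windows were called and 1.59% were called higher. After 5-aza-dc 4 were called, all lower (3.10%, against 3.64% called in either direction and 2.76% lower over all windows). The SMAD shares lay near or below the background for each chemical, and no window in an island at a SMAD start was called. With no minimum difference, etoposide gave 6 SMAD windows past the test (4.65%, against 10.1% of all windows). Propyl gallate gave 10 (7.75%, against 10.3%), theophylline 11 (8.53%, against 11%) and 5-aza-dc 16 (12.4%, against 14%). After propyl gallate 3 of these were higher (2.33%, against 6.55% of all windows) and 7 lower (5.43%, against 3.71%). The split was 4 higher and 2 lower after etoposide (6.38% and 3.74% of all windows). It was 7 and 4 after theophylline (8.13% and 2.86%), and 5 and 11 after 5-aza-dc (3.55% and 10.4%). A window near 0% cannot fall by 10 points. Among windows with a mean of at least 10%, 110 of them in SMAD genes, etoposide and propyl gallate each gave 1.82% of the SMAD windows called, against 2.55% and 2.44% over the table. Theophylline gave 0.909% against 2.5%, and 5-aza-dc gave 3.64% against 4.01%.

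**Figure D2:**
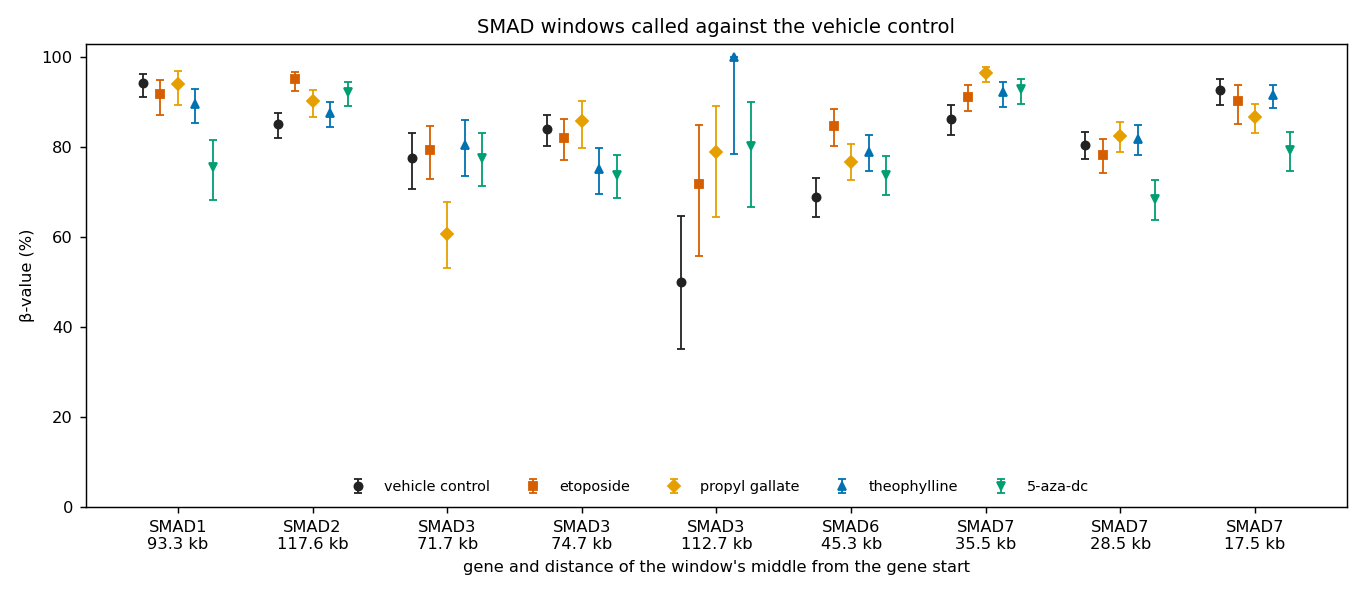
β-value (%) of the 9 SMAD windows called against the vehicle control by at least 1 chemical, with 95% Wilson intervals, for the 5 libraries. The 4 windows called lower after 5-aza-dc stand at 75.7% (SMAD1), 73.8% (SMAD3, 74.7 kb), 68.5% (SMAD7, 28.5 kb) and 79.4% (SMAD7, 17.5 kb) in that library.

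After etoposide, the called windows were in SMAD2 and SMAD6. The SMAD2 window (chr18:47813001-47814000), which the table places in the 3′ untranslated part of the gene, had 85.1% in the vehicle control (515 of 605 calls), 95.2% with etoposide, 90.3% with propyl gallate, 87.7% with theophylline and 92.4% with 5-aza-dc. The vehicle control was the lowest of the 5 and etoposide the highest, 10.1 points above it (adjusted p = 2.2e-05, Fisher's exact test). Etoposide passed the test there against theophylline, though by under 10 points (adjusted p = 0.00162, Fisher's exact test), and not against propyl gallate or 5-aza-dc (adjusted p = 0.0605 and 0.298, Fisher's exact test). The SMAD6 window (chr15:66747001-66748000) had 69.1% in the vehicle control (295 of 427 calls), 84.8% with etoposide, 76.9% with propyl gallate, 79.0% with theophylline and 73.8% with 5-aza-dc. Here too the vehicle control was the lowest, and etoposide lay 15.7 points above it (adjusted p = 4.81e-05, Fisher's exact test). Etoposide was also higher than 5-aza-dc (adjusted p = 0.00517, Fisher's exact test) but did not pass the test against propyl gallate or theophylline (adjusted p = 0.0540 and 0.214, Fisher's exact test).

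After propyl gallate, a shore window past the end of SMAD7 (chr18:48915001-48916000) rose from 86.4% in the vehicle control to 96.6%, with 91.3% with etoposide, 92.3% with theophylline and 92.9% with 5-aza-dc. The vehicle control was again the lowest library, and the difference of 10.2 points passed the test (adjusted p = 1.9e-06, Fisher's exact test). Against the other 3 chemicals propyl gallate did not pass there (adjusted p from 0.0143 to 0.0975, Fisher's exact test). A window inside SMAD3 (chr15:67135001-67136000) fell to 60.8% (101 of 166 calls, interval 53.3 to 67.9) with propyl gallate. It had 77.6% in the vehicle control, 79.3% with etoposide, 80.4% with theophylline and 77.7% with 5-aza-dc, so propyl gallate stood apart from 4 libraries that lay within 3 points of each other. The difference was -16.9 points from the vehicle control (adjusted p = 0.00923, Fisher's exact test), and the test also passed against etoposide, theophylline and 5-aza-dc (adjusted p = 0.00258, 0.00228 and 0.00551, Fisher's exact test). A SMAD9 window just short of a call (chr13:36859001-36860000), chosen after its values were seen, had 90.3% in the vehicle control, 91.9% with etoposide, 99.6% with propyl gallate, 90.1% with theophylline and 93.6% with 5-aza-dc. Propyl gallate was 9.25 points above the vehicle control there (adjusted p = 3.39e-10, Fisher's exact test).

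After theophylline, the called window lay in an intron of SMAD3 (chr15:67176001-67177000) and had the fewest calls of any SMAD window. It gave 20 methylated of 40 calls in the vehicle control and 14 of 14 after theophylline (interval 78.5 to 100), with 71.8% with etoposide, 79.1% with propyl gallate and 80.4% with 5-aza-dc. The difference was 50 points (adjusted p = 0.00756, Fisher's exact test). Theophylline did not pass the test there against any of the other 3 chemicals (adjusted p from 0.149 to 0.345, Fisher's exact test), and with at least 30 calls asked in every library no SMAD window was called for theophylline.

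After 5-aza-dc, the called windows were in SMAD1, SMAD3 and SMAD7, and all were lower. The SMAD1 window (chr4:145574001-145575000) lies past the end of the gene, 93.3 kb from its start. It had 94.4% in the vehicle control (302 of 320 calls), 91.8% with etoposide, 94.2% with propyl gallate, 89.8% with theophylline and 75.7% with 5-aza-dc (118 of 156 calls). The 5-aza-dc library lay below all 4 others without overlap of the intervals, -18.7 points from the vehicle control (adjusted p = 6.47e-07, Fisher's exact test) and lower than each other chemical (adjusted p from 5.58e-05 to 0.00194, Fisher's exact test). In SMAD3, the window of an internal start (chr15:67138001-67139000) had 84.0% in the vehicle control, 82.1% with etoposide, 85.9% with propyl gallate, 75.2% with theophylline and 73.8% with 5-aza-dc. The call against the vehicle control (-10.2 points, adjusted p = 0.00715, Fisher's exact test) was not matched against the other 3 chemicals, none of which passed (adjusted p from 0.0128 for propyl gallate to 0.906 for theophylline, Fisher's exact test).

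SMAD7 had the other 2 windows called after 5-aza-dc, both inside the gene. One (chr18:48922001-48923000) had 80.6% in the vehicle control (565 of 701 calls), 78.4% with etoposide, 82.5% with propyl gallate, 81.9% with theophylline and 68.5% with 5-aza-dc (286 of 417 calls). The 5-aza-dc library was 12.1 points lower than the vehicle control (adjusted p = 0.000136, Fisher's exact test) and lower than each of the other 3 chemicals (adjusted p from 2.15e-05 to 0.00726, Fisher's exact test). The other (chr18:48933001-48934000) had 92.8% in the vehicle control, 90.4% with etoposide, 86.7% with propyl gallate, 91.6% with theophylline and 79.4% with 5-aza-dc. It was 13.3 points lower than the vehicle control (adjusted p = 3.36e-05, Fisher's exact test) and lower than etoposide and theophylline, but not propyl gallate, at the same threshold (adjusted p = 0.00873, 2.72e-05 and 0.0423, Fisher's exact test).

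**Figure D3:**
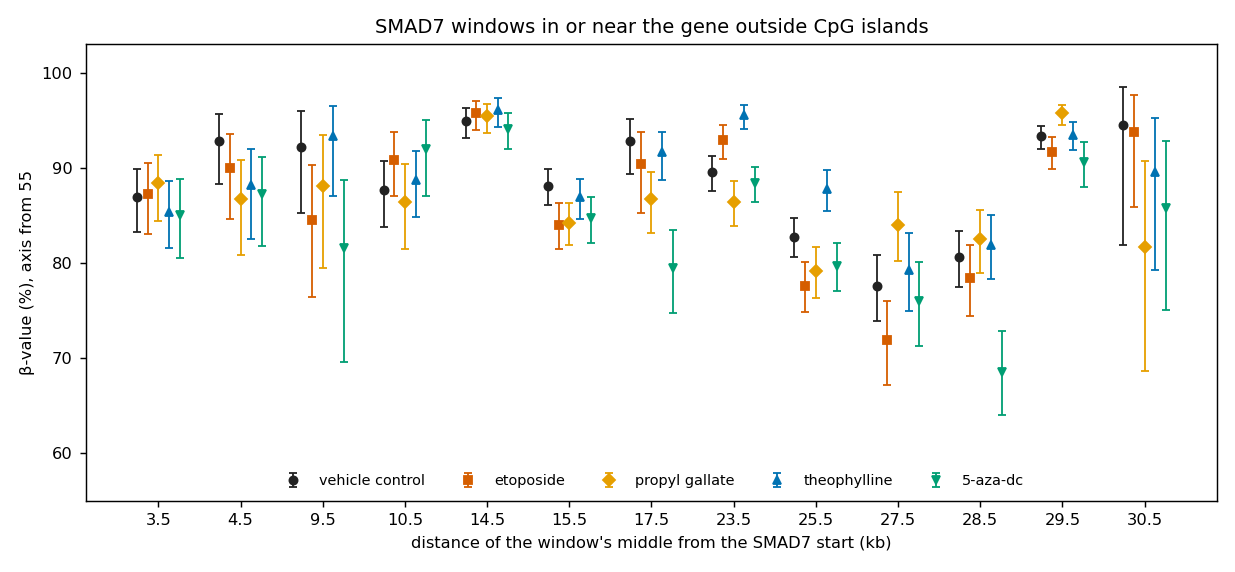
β-value (%) of the 13 SMAD7 windows in or near the gene outside CpG islands, ordered by distance from the gene start (kb), with 95% Wilson intervals for the 5 libraries; the axis starts at 55%. The 5-aza-dc library is below the vehicle control in 12 of the 13 windows, and in 168357 of all 288391 windows. The subset was not planned.

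SMAD7, the inhibitory SMAD induced by TGF-β and BMP signals, had the lowest mean relative to the vehicle control after 5-aza-dc of the 8 genes. Its 29 windows averaged 74.1% in the vehicle control, 73.9% with etoposide, 72.6% with propyl gallate, 74.9% with theophylline and 71.6% with 5-aza-dc. The mean difference after 5-aza-dc was -2.49 points, with a 95% counting interval from -3.66 to -1.31 that overlaps those of SMAD1, SMAD2, SMAD5 and SMAD6. The 13 windows in or near the gene outside islands were a subset that was not planned. Their mean was 88.7% in the vehicle control and 84.1% with 5-aza-dc. That difference was -4.65 points (counting interval -6.36 to -2.94), and -3.18 without the 2 called windows. Of the 13 windows, 12 were lower after 5-aza-dc, where 168357 of all 288391 windows were lower. Table windows with a mean of 10% to 90% differed by -1.96 points on average, and those at 90% or more by -0.68. 5-aza-dc was the lowest library in 6 of the 13 windows, propyl gallate in 4 and etoposide in 3. Propyl gallate was also lower than the vehicle control over the 29 SMAD7 windows, by -1.47 points (-2.61 to -0.32), while over all SMAD windows it was higher. Without the 2 island windows past the end of the gene, an alternative added after seeing the data, the SMAD7 difference was -0.78 after propyl gallate and -1.82 after 5-aza-dc. At -1.82 SMAD7 was no longer the lowest of the 8 genes, as SMAD1 had -2.24 after 5-aza-dc.

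**Figure D4:**
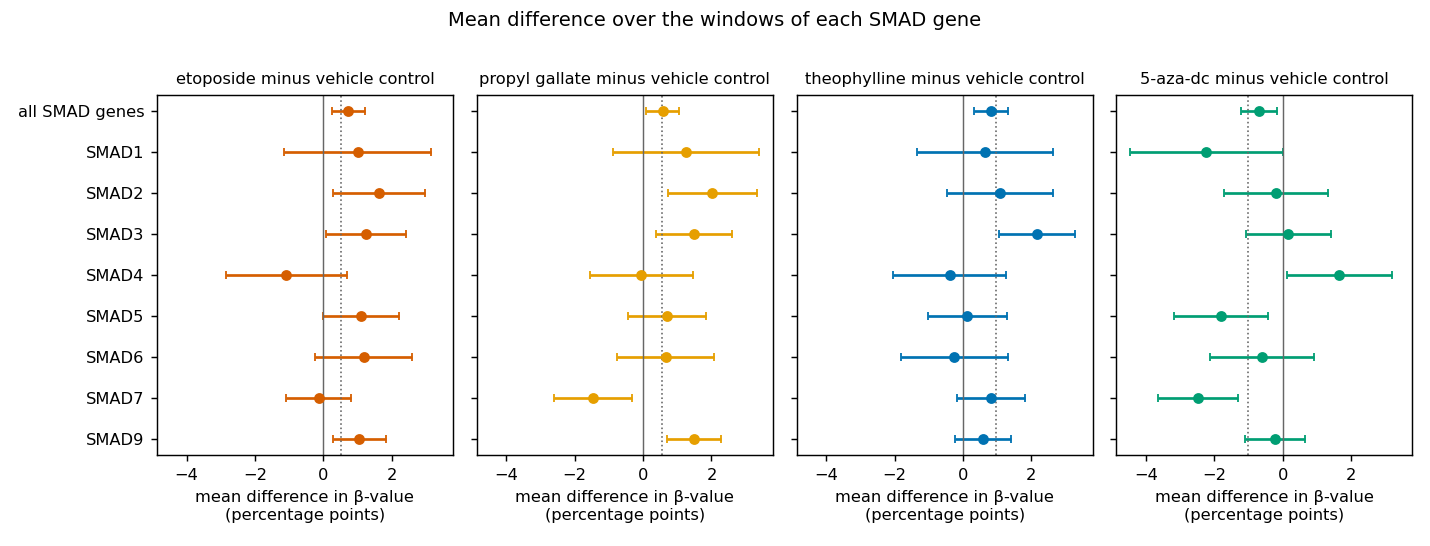
Mean difference in β-value from the vehicle control (percentage points) over all SMAD windows and over the windows of each gene, 1 panel per chemical, all on 1 scale. Bars are 95% intervals of counting error, the solid line is 0 and the dotted line is the mean difference over all windows of the table. SMAD7 lies at -1.47 after propyl gallate and -2.49 after 5-aza-dc.

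Over all 129 SMAD windows, the mean β-value was 73.4% in the vehicle control, 74.2% with etoposide, 74.0% with propyl gallate, 74.3% with theophylline and 72.7% with 5-aza-dc. The differences from the vehicle control were 0.73 points with etoposide (counting interval 0.24 to 1.22), 0.57 with propyl gallate (0.08 to 1.06), 0.83 with theophylline (0.34 to 1.33) and -0.69 with 5-aza-dc (-1.22 to -0.16). Over all windows of the table the same differences were 0.51, 0.57, 0.98 and -1.03, so the SMAD differences had the sign of the table's for each chemical. 5-aza-dc was the lowest of the 5 libraries in 46 SMAD windows (35.7%, against 35.1% of all windows), and theophylline the highest in 33 (25.6%, against 26.8%). The SMAD value for propyl gallate turned to -0.34 when all calls were pooled, a sum in which the start islands held 52.2% to 56.3% of the calls. A pooled value also moves with how each library's calls are shared among the windows.

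Of the TGF-β-responsive members, SMAD3 was higher than the vehicle control after theophylline by 2.18 points (1.07 to 3.29), after propyl gallate by 1.49 (0.38 to 2.61) and after etoposide by 1.25 (0.08 to 2.42). After theophylline 21 of its 31 windows were higher (67.7%, against 59.9% of all windows). Over the 30 windows with at least 30 calls, that is, without the intron window called after theophylline, the differences were 0.58 after theophylline, 0.57 after propyl gallate and 0.56 after etoposide. With all calls pooled they turned to -2.46 after theophylline and -2.50 after propyl gallate. SMAD2 was higher after etoposide by 1.63 (0.28 to 2.97) and after propyl gallate by 2.02 points (0.72 to 3.33). With all calls pooled the etoposide value turned to -2.22, and over the windows with at least 100 calls the differences were 0.97 and 0.81. All 3 SMAD2 windows in or near the gene outside islands were higher than the vehicle control after each of the 4 chemicals, 5-aza-dc included (3.55 points, 1.66 to 5.43). Against the mean of the other 4 libraries that 5-aza-dc difference was 1.11 points. Over all windows, 54.9%, 55.3%, 59.9% and 40.9% were higher after etoposide, propyl gallate, theophylline and 5-aza-dc. SMAD4 was the only gene whose mean was higher after 5-aza-dc with an interval above 0, at 1.66 points (0.11 to 3.20). The sign turned to -0.22 over the SMAD4 gene body alone, where only its 2 island windows were measured, and to -1.80 with all calls pooled. By region, SMAD4 was 4.67 points higher in its other island, 0.91 outside islands in or near the gene and 2.03 farther away. The pooled value also moves with each library's share of calls per window, so it is not a change within windows alone.

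Of the BMP-responsive members, SMAD5 was lower after 5-aza-dc in all 5 of its windows, by -1.80 points on average (-3.17 to -0.42). SMAD1 was lower by -2.24 (-4.47 to -0.01), but 1.05 higher over its gene body, which leaves out the called window past its end. SMAD9 was higher after etoposide by 1.05 points (0.27 to 1.83) and after propyl gallate by 1.49 (0.70 to 2.28). Of its 13 windows 9 and 11 were higher (69.2% and 84.6%, against 54.9% and 55.3% of all windows). The sign turned for propyl gallate with all calls pooled (-0.85 points) and for etoposide as a log2 ratio (-0.0342). The intervals for SMAD6 included 0 for all 4 chemicals, and the widest of its differences was 1.18 points after etoposide (-0.24 to 2.61). These intervals hold counting error and no spread between cultures.

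The windows with the widest range over the libraries, among those with at least 100 calls in each, were the called ones for SMAD1, SMAD2, SMAD3, SMAD6 and SMAD7 and uncalled ones for the other 3 genes. In SMAD4 (chr18:51117001-51118000) the values were 88.2% in the vehicle control, 95.1% with etoposide, 88.7% with propyl gallate, 96.6% with theophylline and 93.4% with 5-aza-dc, and theophylline passed the test without reaching 10 points (adjusted p = 0.00563, Fisher's exact test). In SMAD5 (chr5:136176001-136177000) they were 89.7%, 94.7%, 93.1%, 92.3% and 86.4% in the same order, and none passed (adjusted p from 0.0417 to 0.46, Fisher's exact test). In SMAD9 (chr13:36856001-36857000) they were 92.5%, 97.04%, 92.8%, 98.5% and 87.8%, with theophylline higher than the vehicle control (adjusted p = 0.00402, Fisher's exact test). Within the same band of level and with at least 100 calls, the median range of the SMAD windows was 0.614 points below 10%, against 1.16 for all windows. It was 10.1 against 9.02 from 10% to 70%, 8.05 against 7.73 from 70% to 90%, and 5.80 against 5.39 at 90% or more. Levels were not equal below 10%. At any number of calls, the SMAD windows there had a median of 0.855% in the vehicle control, against 1.35% over the table.

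Pairs of libraries other than those with the vehicle control gave similar counts. Of the SMAD windows, 3 were called between propyl gallate and etoposide (2.27% of all windows), 3 between theophylline and etoposide (2.30%) and 3 between theophylline and propyl gallate (2.17%). With 5-aza-dc, 5 were called against etoposide (4.23% of all windows), 5 against propyl gallate (4.18%) and 7 against theophylline (4.59%). The 7 against theophylline were all lower after 5-aza-dc, where 3.96% of all windows were lower. These pairs share libraries with each other and with the comparisons above.

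Other genes of the pathway were described by a list of 56 ligands, receptors, extracellular inhibitors, SMAD regulators and targets, of which 54 had windows, 833 in all. ID1 and TGFB2 had none. The share of these windows called was 2.28% with etoposide, 2.04% with propyl gallate, 1.68% with theophylline and 3.12% with 5-aza-dc, each below the background given above. After etoposide 1.68% of the pathway windows were called higher and 0.60% lower, where 1.36% and 0.956% of all windows were. Propyl gallate gave 1.44% higher and 0.60% lower, against 1.34% and 0.878%. Theophylline gave 1.56% and 0.12%, against 1.59% and 0.681%, and 5-aza-dc 1.08% and 2.04%, against 0.876% and 2.76%. By gene, 9 had windows called only higher, 3 only lower and 1 in both directions after etoposide, and the counts were 8, 1 and 3 after propyl gallate. They were 12, 1 and 0 after theophylline and 5, 9 and 4 after 5-aza-dc. Over the 4 chemicals together 2.61% of all window comparisons were called, so genes with more windows have more calls. PMEPA1, a TGF-β target that restrains the pathway, had 9 calls in 39 windows (5.77% of its comparisons), and NEDD4L, a ubiquitin ligase that acts on activated SMAD2 and SMAD3, had 8 in 49 (4.08%). ENG, a TGF-β co-receptor, had 5 in 19 windows (6.58%), and SKI, a co-repressor bound by SMADs, 5 in 59 (2.12%, below the background). BAMBI, NOG, TGFB3 and TGFBR3 had 4 calls each, in 11, 13, 9 and 28 windows, and ACVR1C had 3 in 6. Calls in BAMBI, NOG and TGFBR3 were all higher, with 1 per chemical in BAMBI and NOG. Those in TGFB3 and ACVR1C went both ways. All 4 chemicals were compared with the same vehicle control library, so calls of 1 gene need not be separate events. The genes named here were picked for their number of calls, so their shares are a description only. By Euclidean distance over the mean β-values of promoter windows and of other windows in the 5 libraries, the pathway genes nearest to the SMAD mean were SKI (20.7 points), CREBBP (25.1) and ACVRL1 (25.7). SKI had 19.3% at its promoter and 86.2% elsewhere in the vehicle control, and the SMAD mean over the 5 libraries was 12.95% at promoters and 81.0% elsewhere. The SMAD promoter mean used here follows the starts in the deposited table and includes the methylated windows before the SMAD4 island. Those windows averaged 96.2% in the vehicle control, where the median over the 14 SMAD promoter windows was 1.03%. The promoter mean, and the distances from it, therefore lean on SMAD4. The order of the nearest genes without SMAD4 was not worked out.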

How the data were processed

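Per the labels, RRBS libraries were made from genomic DNA of iPSCs with a Zymo kit. The submitters' processing notes name hg38, Trim Galore 0.5.0, Bismark 0.20.0 and methylKit 1.10.0. The authors summed CpG calls over windows of 1000 bases, scaled the coverage and merged the libraries. The deposited calls are counts for the vehicle control and a score (scaled and rounded calls) for the other 4. The deposited β-value is a fraction of methylated calls, used here as a percentage; it follows the scaled, rounded calls and can differ slightly from the ratio of recovered calls.

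The factors 1.18 (etoposide), 1.09 (propyl gallate), 1.15 (theophylline) and 1.21 (5-aza-dc) were recovered from the numbers missing among low coverages and returned 100% of the deposited coverage. Fisher's exact test, planned on counts, was run two-sided on the calls so recovered, with Benjamini-Hochberg adjustment over all windows. It was tried on simulated data with independent calls, which cannot show how it behaves where calls depend on each other. Intervals of mean differences are binomial (95%). The smallest coverage in the vehicle control was 10. With 1 library per condition, p-values compare libraries only.

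The SMAD genes, the pathway list and the markers were chosen with earlier results of these data known. Windows planned to be given in full were those with a gene start and those called. For each gene the one with the widest range at 100 or more calls was added. All other windows and subsets described singly were chosen after their values were seen. Pathway genes named are those among the 10 with most calls, of which 1 is not reported here, and the 3 nearest in β-value. Promoters ran from 1500 bases before to 500 after a start. Alternatives covered thresholds, call minimums, deposited calls, window assignment, pooling, medians, log2 ratios and the reference. Analyses used Python 3.11.15, numpy 2.4.6, pandas 2.3.3, scipy 1.17.1 and numba 0.67.0. Window sequences were not used here.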

Additional observations from a re-analysis of the deposited data

How the results depend on the processing

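No paired analysis was possible because each condition had 1 library, and for the same reason no replicate could be left out. The number of SMAD windows called after etoposide was 0 at 25 points, 6 with no minimum difference and 1 with windows assigned by symbol. After propyl gallate it was 0 at 25 points, 10 with no minimum, 1 by symbol and 1 in gene bodies. After theophylline it was 11 with no minimum and 0 with at least 30 calls, and after 5-aza-dc 0 at 25 points and 16 with no minimum. With the calls as deposited, all 9 called windows stayed called.

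The mean over all SMAD windows became 0.0927 (etoposide) and 0.24 (theophylline) as a median. With all calls pooled it was -0.34 (propyl gallate, reversed) and -2.87 (5-aza-dc), and against the other 4 libraries -1.23 (5-aza-dc). The mean over the 14 promoter windows, by the starts in the deposited table, was -0.38 after propyl gallate (counting interval -1.22 to 0.46). Over promoters at RefSeq starts, chosen after seeing the data, the value was 0.58. That set takes in the SMAD3 window of the internal start, with 64.0% in the vehicle control and 76.8% with propyl gallate. The start islands alone gave -0.52 after propyl gallate.

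For single genes, pooling gave 5.85 (etoposide) and 4.24 (theophylline) for SMAD1. It gave -2.22 (etoposide, reversed) and -5.17 (5-aza-dc) for SMAD2. For SMAD3 it gave -2.50 (propyl gallate) and -2.46 (theophylline), both reversed, and -3.79 (5-aza-dc). For SMAD4 it gave 1.52 (propyl gallate), 4.51 (theophylline) and -1.80 (5-aza-dc, reversed). For SMAD5 it gave -0.19 (etoposide, reversed) and -2.01 (propyl gallate), for SMAD7 -4.48 (5-aza-dc), and for SMAD9 -0.85 (propyl gallate, reversed), 1.89 (theophylline) and -3.42 (5-aza-dc). Pooling weights windows by each library's own calls, so pooled values also move where the share of calls per window differs between libraries. Of all SMAD calls, the start islands held 53.5% in the vehicle control, 52.5% with etoposide and 53.5% with propyl gallate. They held 52.2% with theophylline and 56.3% with 5-aza-dc. With at least 100 calls, SMAD3 was 0.0112 (propyl gallate) and 0.38 (theophylline), SMAD4 1.52 and SMAD6 1.31 after theophylline; with at least 30, SMAD3 was 0.58 after theophylline. Medians were 3.31 (SMAD4, 5-aza-dc), -0.77 (SMAD6, etoposide) and 0.28 (SMAD9, propyl gallate). By symbol, SMAD1 was -6.68 after 5-aza-dc, SMAD3 4.45 (propyl gallate) and 4.82 (theophylline), SMAD6 -0.54 (etoposide), -1.09 (propyl gallate) and -2.17 (5-aza-dc), and SMAD9 0.47 (propyl gallate) and -0.34 (theophylline). In gene bodies, the 5-aza-dc value was 1.05 (SMAD1, reversed), 1.70 (SMAD2), -0.22 (SMAD4, reversed) and -3.77 (SMAD7), and SMAD7 was -1.55 after etoposide. Against the other 4 libraries SMAD7 was 1.84 after theophylline, and the SMAD2 windows in or near the gene outside islands were -0.38 after theophylline (reversed). The log2 ratio of SMAD9 after etoposide was -0.0342 (reversed). Where no construction is named, the cause was not tested. Of 228 single-gene values in percentage points, 190 stayed within their counting interval. The log2 ratios are on another scale, and 23 of 32 had the sign of the difference in points.

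With no replicates, no spread between cultures is known. In 3 SMAD windows some library had under 30 calls, where only large differences can pass the test, and windows outside CpG-rich fragments were not measured by RRBS.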
